A study of Oryctolagus cuniculus with 16 samples.

Results

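Retinoic acid is made from vitamin A in paired steps and is then carried through the cell by small binding proteins. The genes described here are RDH10, the retinol dehydrogenase that turns retinol into retinal, ALDH1A2, the aldehyde dehydrogenase that turns retinal into retinoic acid, CRABP2, the cellular binding protein that delivers retinoic acid to the retinoic acid receptors, and FABP5, a fatty acid binding protein that also binds retinoic acid and can carry its ligands to PPAR-delta. They were taken by their symbols, 4 of the 13788 gene symbols in the count table, and were picked because earlier results from the same libraries had shown their levels by layer, location and flow. Their own differences are therefore given as descriptions, with standard errors and without a test, and tests are given only for the other genes of the retinoid pathway.

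In the pathway, retinol bound to RBP4 enters cells, is stored as esters, and is oxidized to retinal and on to retinoic acid, which acts in the nucleus through RAR and RXR receptors and is broken down by CYP26 enzymes. Retinoic acid is known to influence the growth and differentiation of vascular smooth muscle, and ALDH1A2 and CRABP2 are also expressed by cells of the meninges that surround cerebral arteries.

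The 16 libraries came from 4 female New Zealand white rabbits. Rabbits 3 and 4 had sham surgery (normal flow), and rabbits 5 and 6 had both common carotid arteries ligated, which raises flow through the basilar artery (BA) and its terminal bifurcation, the basilar terminus (BT). At 24 h after surgery, the intima, which holds the endothelial cells (ECs), and the media, which holds the vascular smooth muscle cells (VSMCs), were cut separately by laser microdissection at both places, and each library pooled strips from several sections of 1 rabbit. In every tissue, 2 sham rabbits stood against 2 ligated ones, the same 4 animals supplied every tissue, and sham and ligated libraries always came from different animals.

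Named genes had 5211886 to 17686105 counts per intimal library and 2154863 to 11219236 per medial library. Levels are counts scaled to a common library size (CPM) with TMM over the 16 libraries. CPM is not corrected for transcript length, so levels are compared between libraries and not between genes. All 4 genes had counts in all 16 libraries, with 133 to 4696 counts for RDH10, 1 to 3613 for ALDH1A2, 2 to 5378 for CRABP2 and 34 to 6967 for FABP5, and all passed the filter of a mean above 1 CPM in at least 1 group in all comparisons. The layers were checked by their markers. Summed over 7 endothelial genes, the intima held 983 to 5133 CPM and the media 57.4 to 953, while 6 smooth muscle genes summed to 11437 to 76940.4 CPM in the intima and to 70487 to 120774 in the media, so VSMC transcripts were present in all intimal libraries. In bulk tissue, fewer cells of a type and less RNA per cell cannot be told apart. The sham BT intima of rabbit 3 stood apart: it held 253 CPM of SLC22A8 and 265 of SLC22A6, transporters of the meningeal barrier, against at most 3.32 and 44.2 CPM in the other 15 libraries.

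RDH10 was higher with ligation in all 4 tissues by the mean of each group. In the BA intima it was at 27.5 and 13.7 CPM in sham rabbits 3 and 4 and at 170.2 and 127 in ligated rabbits 5 and 6. In the BT intima the values were 18.5 and 46.1 CPM in sham and 406 and 204 in ligated rabbits. Both ligated libraries thus lay above both sham libraries at both locations of the intima. The difference, ligated minus sham, was 2.84 ± 0.59 on the log2 scale (estimate ± SE, 2 against 2) at the BA and 3.25 ± 0.65 at the BT.

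In the media, RDH10 separated the flow groups at the BT and not at the BA. The BT media held 38.6 and 21.5 CPM in sham and 329 and 455 in ligated rabbits, so the groups lay far apart. In the BA media, sham rabbits had 39.9 and 89.3 CPM and ligated rabbits 233 and 88.6, and ligated rabbit 6 was level with sham rabbit 4. The log2 differences were 3.72 ± 0.41 in the BT media and 1.34 ± 0.57 in the BA media, and the difference between them, BT minus BA and fitted with rabbit as a block, was 2.47 ± 0.61. Without rabbit 5 the BA media difference was 0.50, the lowest of the fits without 1 rabbit.

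Ordered by group mean, RDH10 ran from the ligated BT media (392 ± 89.5 CPM, mean ± SD, n = 2) through the ligated BT intima (305 ± 143), BA media (161 ± 102) and BA intima (148 ± 30.7) to the sham BA media (64.6 ± 35.0), BT intima (32.3 ± 19.5), BT media (30.0 ± 12.2) and BA intima (20.6 ± 9.78). The libraries of neighbours in this order overlapped at every step except between the ligated BA intima and the sham BA media. That step is where the ligated tissues end and the sham tissues begin.

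ALDH1A2, the enzyme that makes retinoic acid itself, was most abundant in the ligated BA media. It was at 105 and 70.3 CPM in the sham BA media and at 559 and 405 in the ligated BA media. The ligated rabbits were higher without overlap, by 2.48 ± 0.38 on the log2 scale (estimate ± SE). In the BT media sham rabbits had 38.6 and 175 CPM and ligated rabbits 162 and 252, so rabbit 4 lay within the ligated range and the log2 difference was 0.95 ± 0.56, or 2.44 without rabbit 4 and 0.25 without rabbit 3.

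In the intima the sham replicates of ALDH1A2 lay far apart. Sham rabbit 3 had 58.8 CPM in the BA intima, and sham rabbit 4 had a single count, 0.0747 CPM (exact Poisson 95% interval from 0.00189 to 0.416, for counting error only). The ligated BA intima held 161 and 129.9 CPM, above both. The log2 difference was 2.29 ± 1.55, and it moved to 10.72 without rabbit 3, when the single count was the only sham value. In the BT intima the order was turned, with 244 and 24.9 CPM in sham and 17.8 and 54.5 in ligated rabbits and a log2 difference of -1.91 ± 1.07. This sign rested on sham rabbit 3, and without that rabbit the difference was 0.53. The same library had the transporters named above and summed to 17817 CPM over 10 leptomeningeal marker genes, against 204 to 3992 in the other BT intimal libraries. Their part in the result was not tested.

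By group mean, ALDH1A2 ran from the ligated BA media (482 ± 109 CPM, mean ± SD, n = 2) and the ligated BT media (207 ± 63.5) through the ligated BA intima (146 ± 22.3), sham BT intima (135 ± 155), sham BT media (107 ± 96.8) and sham BA media (87.4 ± 24.2) to the ligated BT intima (36.2 ± 26.0) and sham BA intima (29.5 ± 41.6). The first group was clear of the second, and neighbours from the ligated BA intima to the sham BA media overlapped. In both BT and BA, the ligated media lay above the ligated intima of the same rabbit.

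CRABP2, which passes retinoic acid to its nuclear receptors, was scarce in the media and higher in the intima in most pairs. In the BT media it was barely counted without ligation, with 2 counts in rabbit 3 (0.581 CPM, exact Poisson 95% interval from 0.0704 to 2.10) and 3.23 CPM in rabbit 4, and it was at 18.1 and 19.7 CPM in ligated rabbits. These groups did not overlap, and the log2 difference was 3.25 ± 1.07 (estimate ± SE). In the BA media sham rabbits had 3.30 and 15.0 CPM and ligated rabbits 36.4 and 13.9, with a log2 difference of 1.48 ± 0.95. Sham rabbit 4 was above ligated rabbit 6 there, and without rabbit 4 the difference was 2.92.

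The intimal values of CRABP2 gave no stable direction with flow. In the BA intima they were 8.68 and 40.4 CPM in sham and 19.0 and 139.8 in ligated rabbits, and the log2 difference of 1.69 ± 0.98 turned to -0.35 without rabbit 6. In the BT intima they were 364 and 5.71 CPM in sham and 48.3 and 78.0 in ligated rabbits, and the log2 difference of -1.56 ± 1.44 turned to 3.47 without rabbit 3. The value of 364 CPM was the highest of the 16 and came from the library with the meningeal transporters. Ordered by mean, CRABP2 ran from the sham BT intima (185 ± 253 CPM, mean ± SD, n = 2), ligated BA intima (79.4 ± 85.4) and ligated BT intima (63.1 ± 21.0), which overlapped one another, to the ligated BA media (25.1 ± 15.9), sham BA intima (24.6 ± 22.5), ligated BT media (18.9 ± 1.18), sham BA media (9.17 ± 8.31) and sham BT media (1.90 ± 1.87).

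FABP5 separated the flow groups in all 4 tissues. In the BA intima sham rabbits had 61.8 and 9.34 CPM and ligated rabbits 491 and 354, a log2 difference of 3.56 ± 0.83 (estimate ± SE). In the BT intima sham rabbits had 74.8 and 148 CPM and ligated rabbits 506 and 574, a log2 difference of 2.28 ± 0.48. The groups lay apart at both locations, and the smaller difference at the BT went with higher sham values there.

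In the media FABP5 had the largest estimated difference of these 4 genes at both locations. The BA media held 49.3 and 32.2 CPM in sham and 873 and 405 in ligated rabbits, a log2 difference of 3.98 ± 0.48. The BT media held 9.88 and 39.7 CPM in sham and 745 and 627 in ligated rabbits, a log2 difference of 4.77 ± 0.56, or 27.3-fold. Over the fits without 1 rabbit, the FABP5 difference stayed positive in every tissue, between 1.87 and 6.13. Reads were counted only where they mapped to a single place, so any reads shared with near-identical processed copies of FABP5 were left out by the authors and the level is uncertain to that extent.

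By group mean, the 4 ligated tissues filled the top of the order for FABP5, at 686 ± 83.4 CPM (mean ± SD, n = 2) in the BT media, 639 ± 331 in the BA media, 540 ± 47.8 in the BT intima and 422 ± 96.9 in the BA intima. The sham tissues followed, with the BT intima at 111 ± 51.6, the BA media at 40.8 ± 12.1, the BA intima at 35.6 ± 37.1 and the BT media at 24.8 ± 21.1. Among ligated tissues the BT and BA media overlapped each other, as did the BA media and the BT intima. The last 3 sham tissues overlapped.

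**Figure D1:**
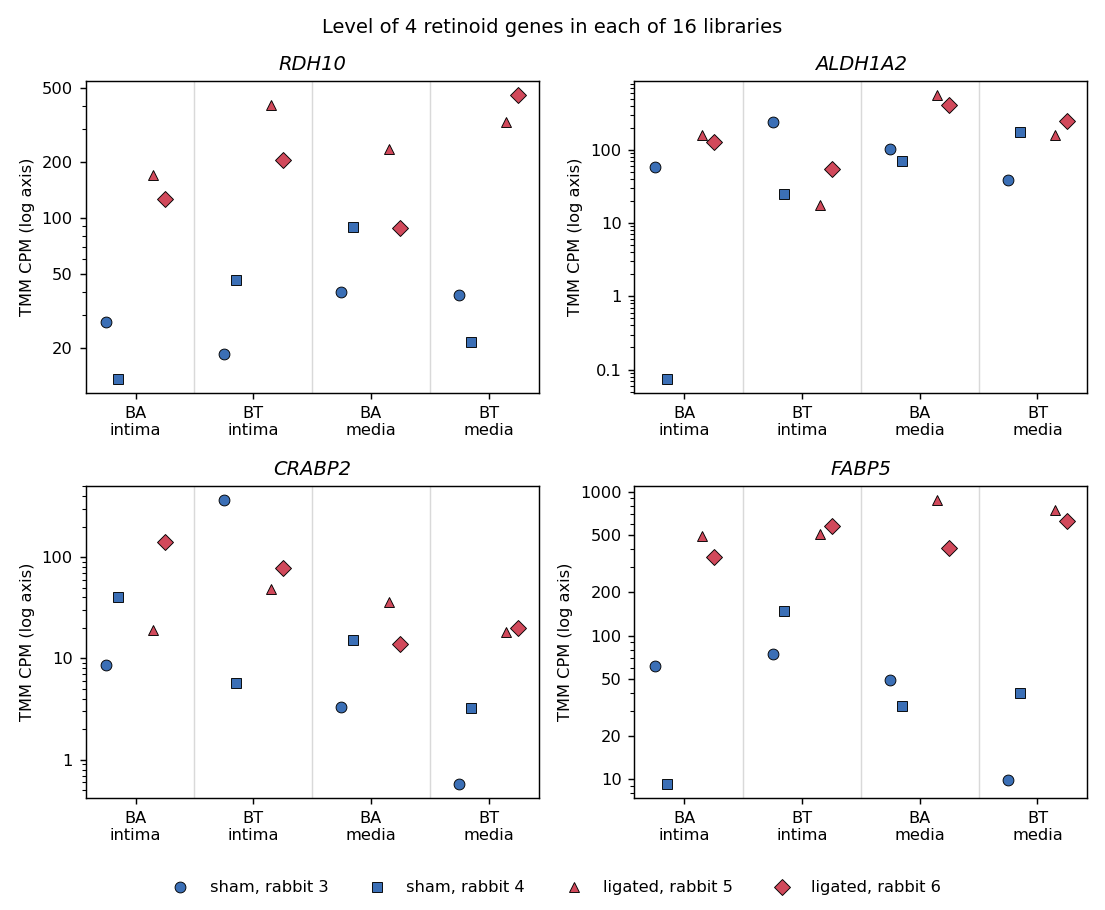
TMM CPM (log axis) of RDH10, ALDH1A2, CRABP2 and FABP5 in each of the 16 libraries, by tissue on the horizontal axis; blue symbols are sham rabbits 3 and 4 and red symbols are ligated rabbits 5 and 6, 1 point per library. FABP5 in ligated rabbits sits between 354 and 873 CPM and in sham rabbits between 9.34 and 148, while the flow groups of CRABP2 overlap in 3 of 4 tissues.

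Seen together, the ligated libraries of the intima lay above the sham libraries without overlap for 3 of the 4 genes at the BA (RDH10, ALDH1A2, FABP5) and 2 at the BT (RDH10, FABP5), where 15.4% and 20.4% of all genes tested did the same. Those of the media did so for 2 genes at the BA (ALDH1A2, FABP5) and 3 at the BT (RDH10, CRABP2, FABP5), where 21.0% and 25.4% of all genes did. FABP5 was the only one of the 4 that did so in all 4 tissues, as did 3.68% of the 7930 genes tested in all of them, and RDH10 did so in 3 tissues, as 11.0% of genes did in at least 3. None of the 4 genes had both ligated libraries below both sham libraries in any tissue, which at the BA 20.0% (intima) and 26.0% (media) of all genes had, against 25.6% and 23.1% at the BT. As these contrasts served to choose the genes, the counts are a description only.

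**Figure D2:**
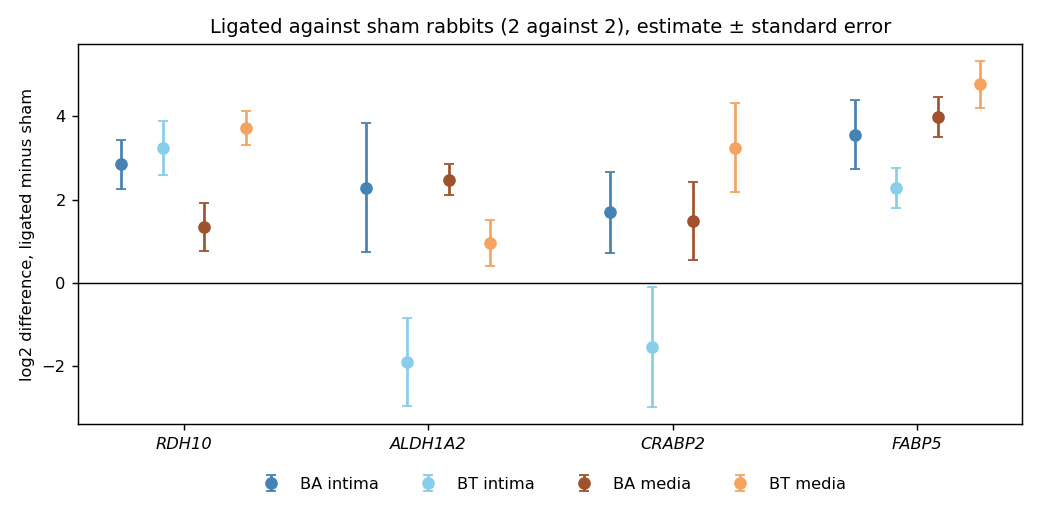
Log2 difference of ligated minus sham rabbits (estimate ± SE, 2 against 2) for each of the 4 genes, with 1 colour for each tissue. All estimates are above 0 except those of ALDH1A2 (-1.91) and CRABP2 (-1.56) in the BT intima, both of which changed sign without sham rabbit 3.

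Intima and media were then set side by side within each rabbit, with rabbit as a block. CRABP2 was higher in the intima in 3 of 4 rabbits at the BA and 4 of 4 at the BT, with log2 differences, intima minus media, of 1.29 ± 0.67 and 2.45 ± 1.14 (estimate ± SE). The ratio at the BT ran from 1.77 in rabbit 4 to 626 in rabbit 3, and the latter divided the highest CRABP2 level by the lowest. ALDH1A2 went the other way, lower in the intima in 4 of 4 rabbits at the BA (-2.40 ± 0.98) and in 3 of 4 at the BT (-1.81 ± 0.99), the exception being rabbit 3.

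RDH10 was lower in the intima in 3 of 4 rabbits at the BA (-0.79 ± 0.48) and 2 of 4 at the BT (-0.22 ± 0.41, or 0.028 with scaling by library size alone). FABP5 was also lower in the intima in 3 of 4 rabbits at the BA (-0.65 ± 0.34). At the BT it was higher in both sham rabbits, by 7.57 and 3.72 times, and lower in both ligated rabbits, at 0.679 and 0.915 of the medial level, and the estimate of 0.97 ± 0.59 became -0.14 without the replicate block. FABP5 thus reached similar levels in both layers of the ligated BT from unequal sham levels.

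Between locations within a layer, FABP5 was higher in the BT than in the BA intima in 4 of 4 rabbits, with ratios of 1.21, 15.8, 1.03 and 1.62 in rabbits 3 to 6 and a log2 difference of 1.08 ± 0.64 (estimate ± SE, rabbit as a block). RDH10 was higher in the BT intima in 3 of 4 rabbits (0.79 ± 0.39). In the media each was higher at the BT in 2 of 4 rabbits. ALDH1A2 was lower in the BT than in the BA media in 3 of 4 rabbits (-0.70 ± 0.41), as was CRABP2 (-1.22 ± 0.70).

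The difference between flow groups was compared between the BT and the BA next. For ALDH1A2 in the intima, the difference of differences, BT minus BA, was -6.24 ± 1.63 on the log2 scale. The level at the BT divided by that at the BA was 4.15 in sham rabbit 3 and 333 in sham rabbit 4. It was 0.110 in ligated rabbit 5 and 0.420 in ligated rabbit 6. The ratio of rabbit 4 rests on the single count in its BA intima. The difference of differences kept its sign in each fit without 1 rabbit, from -10.39 to -4.30. In the media it was -1.22 ± 0.60 for ALDH1A2 and 2.47 ± 0.61 for RDH10, so the estimate for the retinol enzyme was larger at the BT and that for the retinal enzyme larger at the BA. CRABP2 gave 2.05 ± 1.33 and FABP5 1.10 ± 0.54 in the media. The RDH10 value stayed positive without any rabbit (1.46 to 3.47), and that of ALDH1A2 became 0.19 without rabbit 4.

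ALDH1A1, the other main retinal dehydrogenase, went the other way from ALDH1A2 in the media. It fell with ligation in the BA media from 365 and 260.1 CPM to 54.9 and 43.5 (log2 difference -2.65 ± 0.39, edgeR quasi-likelihood F test, q = 0.0289) and in the BT media from 193 and 212 CPM to 48.9 and 46.4 (-2.08 ± 0.37, q = 0.0133). In both places the sham and ligated libraries lay far apart. In the BA intima it was at 77.3 and 54.9 CPM in sham and 18.3 and 20.5 in ligated rabbits (q = 0.74), and in the BT intima at 59.4 and 99.1 against 71.8 and 37.5 (q = 0.738). The call in the BA media was lost without any 1 of the 4 rabbits (q from 0.174 to 0.487, log2 difference from -2.89 to -2.36), and that in the BT media without rabbit 5 (q = 0.0824) or 6 (q = 0.187).

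Within libraries, where the unknown transcript lengths cancel between samples, ALDH1A2 per ALDH1A1 was 0.286 and 0.270 in the sham BA media and 10.2 and 9.32 in the ligated BA media. In the BT media it was 0.20 and 0.829 in sham and 3.31 and 5.42 in ligated rabbits. The BA intima went from 0.761 and 0.00136 to 8.81 and 6.33. In these 3 tissues the ligated ratios lay above the sham ratios, while in the BT intima they were mixed, 4.12 and 0.251 against 0.248 and 1.45. Leptomeningeal markers moved opposite to this ratio in the media. They summed to 21811 and 17195 CPM in the sham and 3261 and 3173 in the ligated BA media. In the BT media they summed to 9935 and 13472 CPM in sham and 2111 and 2693 in ligated rabbits. Most of each of these sums came from the markers OGN and APOD. Fibroblast markers (7 genes) summed to 19475 and 17474 CPM in the sham and 5327 and 6029 in the ligated BA media, and to 13989 and 16999 against 7221 and 8424 in the BT media. Their part in the result was not tested. ALDH1A2 itself was higher without overlap in the ligated BA media, and its flow groups overlapped in the BT media.

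**Figure D3:**
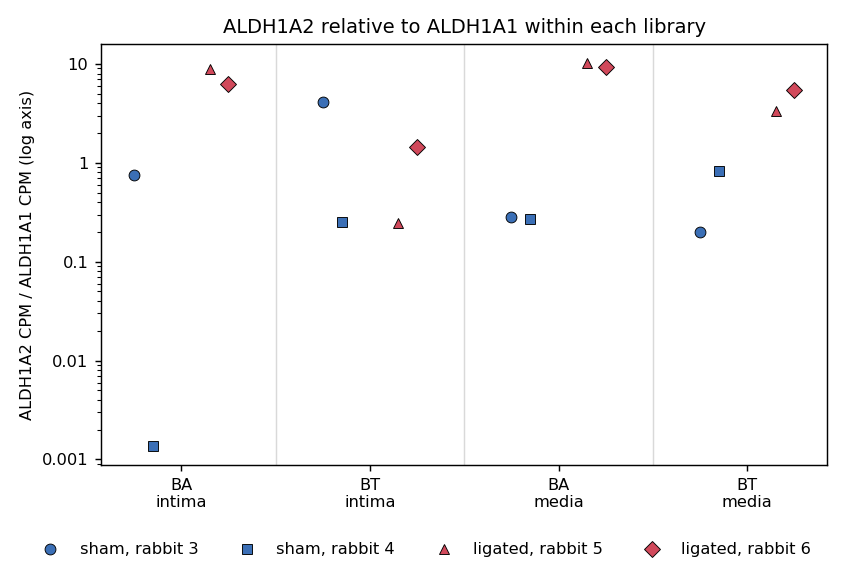
ALDH1A2 CPM divided by ALDH1A1 CPM in each library (log axis), by tissue; blue symbols are sham and red symbols ligated rabbits, 1 point per library. In the BA media the ratio is 0.286 and 0.270 in sham and 10.2 and 9.32 in ligated rabbits, and only the BT intima shows mixed groups.

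The binding proteins could be set against each other in the same way. CRABP2 per FABP5 was 0.0669 and 0.467 in the sham and 0.0417 and 0.0343 in the ligated BA media, and 0.0588 and 0.0813 in the sham and 0.0243 and 0.0315 in the ligated BT media, so the ligated ratios were the lower ones in both. In the intima the ratio ran from 0.0387 to 4.87 in sham and from 0.0386 to 0.395 in ligated rabbits, and the groups overlapped at both locations. FABP5 also stood apart from its relative FABP3, the heart-type fatty acid binding protein. FABP5 per FABP3 was 0.0307 to 0.370 in the sham media and 2.06 to 4.84 in the ligated media, and FABP3 itself was at 133 to 321 CPM in the sham and 180.4 to 298 in the ligated media with no call.

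The other genes of the pathway were taken as 7 lists of 51 genes, of which 41 were in the count table. They cover retinol uptake, storage and carriage, the interconversion of retinol and retinal, retinal oxidation, retinoic acid binding, its breakdown, the nuclear receptors and their cofactors. In the BA media 1 of 23 tested was called and in the BT media 1 of 25, both ALDH1A1 and both lower, against 0.807% and 2.32% of all genes called in either direction. edgeR called no list gene higher in any comparison of flow. DESeq2 called 1 in the BA media, ALDH1A1, and 4 in the BT media, of which RBP4 was higher. In the intima edgeR called none, as for all genes at both locations (0.00%). The paper's own edgeR analysis, which filtered on RPKM, did call intimal genes, among them TTR as lower at the BT. In the BA intima 2 of 25 had an unadjusted p under 0.05, beside 530 of all 8974 genes tested, and DESeq2 called none. In the BT intima 7 of 25 had an unadjusted p under 0.05, beside 1080 of all 9273 genes tested, and DESeq2 called 5. DESeq2 calls over all genes are not given here. The median log2 difference of the tested list genes at the BA was -0.15 (intima) and -0.64 (media), beside -0.0995 and -0.14 for all genes tested, and at the BT -0.33 and 0.18, beside -0.13 and 0.026. Between the locations of the intima none of 26 list genes tested was called, where 0.0110% of all genes were. An unadjusted p under 0.05 was found for 1 of them, beside 351 of all 9131 genes, and DESeq2 called none. For the ligation by location term none of 27 was called in the media, where 0.491% of all genes were. There 4 had an unadjusted p under 0.05, beside 849 of all 9368 genes, and DESeq2 called none. For the same term in the intima none of 27 was called (0.00% of all genes). There 3 had an unadjusted p under 0.05, beside 335 of all 9641 genes, and DESeq2 called none.

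In the BT intima, STRA6 and CRABP1 had lower values in both ligated rabbits than in either sham rabbit, and neither was called by edgeR, while DESeq2 called both (q = 0.00407 and 0.0277). STRA6, the membrane receptor for retinol bound to RBP4, was at 12.4 and 3.81 CPM in sham and had no counts in ligated rabbits, at least 32.1-fold lower taking 3 counts per library as the upper limit of a 0. CRABP1, the close relative of CRABP2, was at 845 and 5.27 CPM in sham and 0.173 and 2.96 in ligated rabbits (q = 0.32). The higher sham value of each gene came from rabbit 3, the library with meningeal transporters. For STRA6 this was 184 counts, against 26 in rabbit 4. In the BA intima STRA6 had 11 and 0 counts in sham rabbits 3 and 4 and 61 and 0 in ligated rabbits 5 and 6.

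RBP4, the plasma carrier of retinol, pointed upwards in the BT media, from 45.6 and 53.2 CPM to 134 and 169 (1.62 ± 0.39), and missed the threshold with edgeR (q = 0.0517) but not with DESeq2 (q = 0.00367). TTR, the partner of RBP4 in plasma and a product of the choroid plexus, was lower in the BT than in the BA media (-6.22 ± 0.45, q = 3.79e-05, rabbit as a block). This rested on 1672 CPM in the sham BA media of rabbit 4 against 27.9 CPM in its BT media, and the call was lost without that rabbit (q = 0.628) and without the replicate block (q = 1.00). In that comparison 0.0227% of all genes were called.

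Among the remaining enzymes, RDH11, another retinol dehydrogenase, was at or below 22.0 CPM in all libraries. ALDH1A3 was at or below 2.17 CPM and LRAT, which esterifies retinol, had no count in any library. In the BA, ALDH1A1 was also lower in intima than in media (-1.84 ± 0.29, q = 0.0387, rabbit as a block), where 0.466% of all genes were called, and this call was lost without the replicate block (q = 0.434), with scaling by library size alone (q = 0.0654) and without any 1 of the 4 rabbits (q from 0.0775 to 0.299).

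The genes that clear and sense retinoic acid are given by their range over the 16 libraries. CYP26A1 reached 0.290 CPM and CYP26B1 2.85 CPM at most, and CYP26C1 had no count. Among the receptors, RARA was at or below 1.56 CPM, RARB at 0.935 to 10.4, RARG at or below 5.60, RXRG at or below 0.451, RXRB at 3.28 to 59.8 and PPARD at 5.36 to 32.5. None of them was called in any comparison. DHRS3 and RXRA were not analysed here.

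**Figure D4:**
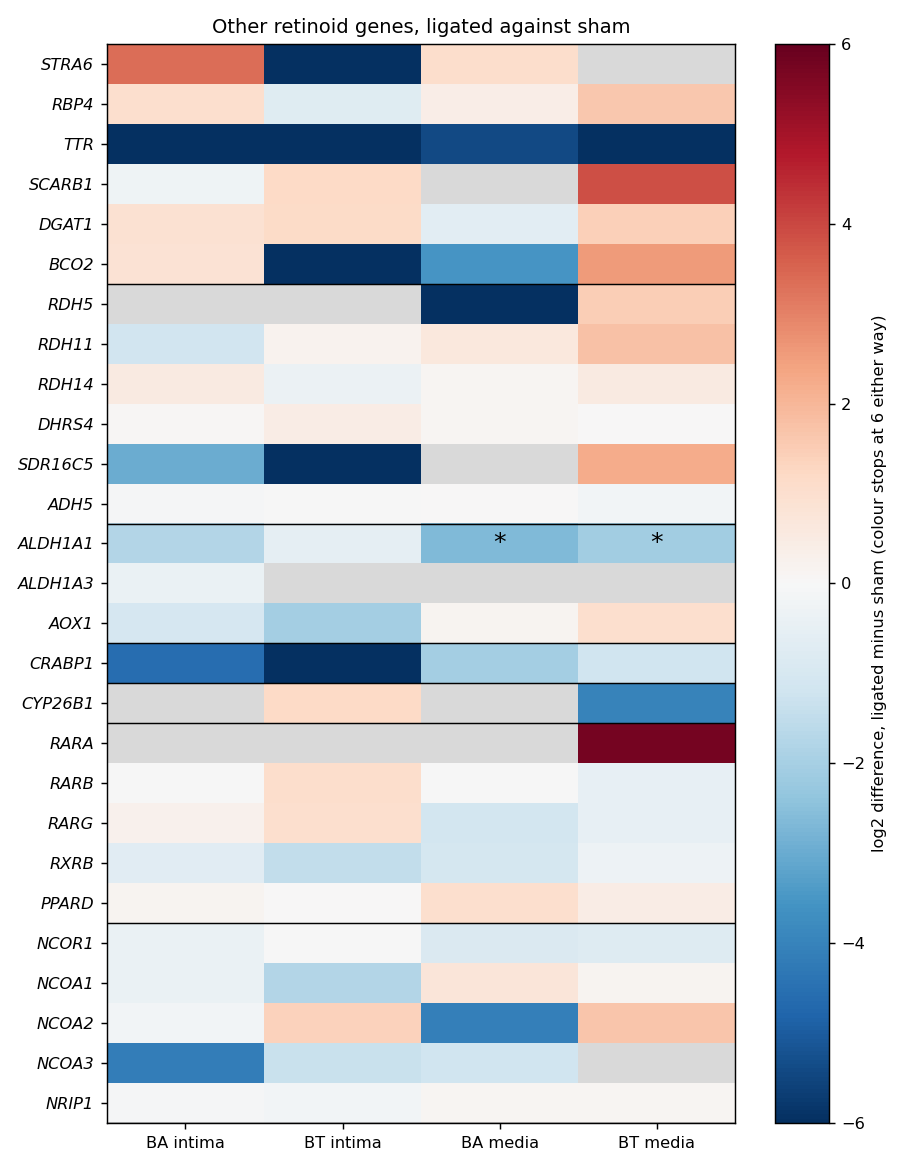
Log2 difference of ligated minus sham rabbits, as colour, for the genes of the 7 retinoid lists that were tested in at least 1 of 4 tissues (columns), with 1 gene left out; rows are grouped by list, grey marks genes not tested, the colour stops at 6 in either direction, and a star marks q below 0.05. The only stars are those of ALDH1A1 in the BA media (-2.65) and BT media (-2.08).

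Genes known to respond to retinoic acid or PPAR-delta gave no call with ligation in the edgeR fits made here. The paper's own edgeR analysis, which filtered on RPKM, lists ANGPTL4 as significantly lower in the ligated BT intima. Of the retinoic acid responsive list 11 of 15 genes were in the table, of the PPAR-delta list 5 of 6, and of the other fatty acid binding proteins all 9. edgeR called 0 in all 4 tissues. Summed over the tissues, with a gene counted again in each tissue, an unadjusted p under 0.05 was found 6 times in the responsive list, 4 times in the PPAR-delta list and 3 times among the binding proteins, and DESeq2 made 5, 2 and 0 calls. Over all genes tested, an unadjusted p under 0.05 was found for 530 of 8974 in the BA and 1080 of 9273 in the BT intima. In the media it was found for 1199 of 8800 at the BA and 1401 of 8783 at the BT. TGM2, a transglutaminase induced by retinoic acid, was at 12.7 and 7.91 CPM in the sham and 94.7 and 137 in the ligated BT intima (log2 difference 3.48 ± 0.54, edgeR q = 0.247, DESeq2 q = 4.66e-07). RARRES1 and RARRES2, both named for their response to retinoids, were lower in the same tissue, at 686 and 252 against 0.259 and 11.5 CPM and at 1932 and 136 against 53.8 and 96.0. The higher sham value of each was that of rabbit 3, the library with meningeal transporters. For RARRES2 the 136 CPM of sham rabbit 4 lay much nearer to the ligated values. PDK4, a target of PPAR-delta, had 268 and 122 CPM in the sham and 36.2 and 253 in the ligated BT intima, and in the media 11.1 to 73.5 CPM in sham and 59.2 to 204 in ligated rabbits. In the BA media both ligated libraries lay above both sham libraries (log2 difference 2.09 ± 0.57, edgeR q = 0.159, DESeq2 q = 0.0230). In the BT media the flow groups of PDK4 overlapped (1.12 ± 0.51, edgeR q = 0.312, DESeq2 q = 0.266). ANGPTL4 reached 149 CPM in the sham BT intima of rabbit 3 and at most 15.6 elsewhere. FABP4, the adipocyte form, was at or below 0.474 CPM in all sham libraries and at 6.23 and 5.26 in the ligated BT media, at least 8.48-fold higher against 3 counts in each library. By layer, NR2F2, a receptor induced by retinoic acid, was lower in intima than in media of the BT (-1.45 ± 0.21, q = 0.026, rabbit as a block; q = 0.175 without the replicate block), where 1.95% of all genes were called.

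The 4 genes followed each other to different degrees. Over the 16 libraries, Pearson's r of log2(CPM + 0.5) was 0.84 between RDH10 and FABP5, 0.55 between ALDH1A2 and FABP5, 0.42 between CRABP2 and FABP5 and 0.038 between ALDH1A2 and CRABP2. Within the 8 medial libraries, CRABP2 and FABP5 gave 0.86, ALDH1A2 and FABP5 0.85 and RDH10 and CRABP2 0.80. Within the 8 intimal libraries, RDH10 and FABP5 gave 0.91 and CRABP2 gave 0.080 with FABP5 and 0.031 with RDH10. These are descriptions over libraries that share 4 rabbits and the flow groups.

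Of the 8701 genes with a mean above 1 CPM over the 16 libraries, the ones most like each of the 4 were picked by the same r. RDH10 was followed most closely by TIMP1, an inhibitor of matrix metalloproteinases, with r = 0.94, MRPL18, a mitochondrial ribosomal protein (0.92), and ANKRD1, a stress-responsive ankyrin repeat protein (0.89). TIMP1 ranged from 349 to 1049.9 CPM in sham and from 2538 to 17325 in ligated libraries, with no overlap. FABP5 was followed by NCK2, an adaptor protein (0.92), ANKRD1 (0.90) and SRXN1, which reduces oxidized peroxiredoxins (0.90). ANKRD1 thus stood near the top for both, at 0.224 to 26.6 CPM in sham and 859.6 to 2651 in ligated libraries.

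ALDH1A2 was followed by ERGIC2 (0.87), the matrix protein TGFBI (0.83) and RBP4 (0.80), the carrier of its pathway's starting material. CRABP2 was followed by SLC3A2, the heavy chain of amino acid transporters (0.92), VAMP8, a vesicle fusion protein (0.91), and RNF130 (0.89). The most opposed genes were ZFYVE1 (-0.91), UPF3A (-0.89) and FRA10AC1 (-0.88) for RDH10, TUBE1 (-0.83), NKAP (-0.79) and BCAM (-0.76) for ALDH1A2, MEF2C, a transcription factor of muscle (-0.89), TPP2 (-0.89) and MPP7 (-0.88) for CRABP2, and DDX17 (-0.91), PGD (-0.89) and FNDC1 (-0.89) for FABP5. Apart from ANKRD1, no gene appeared for more than 1 of the 4, and RBP4 was the only gene of the retinoid lists among them.

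Markers of other cells were read beside all these values. Leptomeningeal markers were found as 10 of 16 listed genes, and their sum was lower in every ligated library than in both sham libraries of the same tissue, from 10509.6 and 2913 to 2199.6 and 472 CPM in the BA intima and from 17817 and 3992 to 204 and 442 in the BT intima. Most of this sum came from OGN and APOD in every library, so it mainly follows these genes. In the sham BA media of rabbit 3, OGN had 100248 and APOD 130404 counts, and no other listed gene had more than 457. OGN held 8323 and 11799.9 CPM in the sham and 1449 and 1525 in the ligated BT media. Macrophage markers (9 of 9 genes) summed to 1096 CPM in the sham BT intima of rabbit 3 and to 56.7 to 505 elsewhere. In the ligated BT intima of rabbit 5 this sum was CD14 alone (1400 counts), and the other listed macrophage genes had no count. CD14 also made up most of the sum in the ligated intima of rabbit 6 (664 counts at the BT, 593 at the BA) and the sham BA intima of rabbit 4 (939). Its log2 difference, intima minus media, was 2.84 ± 0.62 at the BA and 2.79 ± 0.49 at the BT. C1QA, C1QC, MRC1, TYROBP, AIF1 and CD163 had negative estimates at both locations, so the sum does not stand for the whole list. Brain parenchymal markers (9 of 10) summed to at most 13.0 CPM, with AQP4, MOG and OLIG1 at 0 in all libraries. RDH10 and FABP5 had higher group means in the ligated tissues, in which the leptomeningeal sum was lower. The highest CRABP2 (364 CPM) and ALDH1A2 (244 CPM) of the BT intima were in the library with the highest sum, that of rabbit 3, and in the other 3 libraries neither gene followed the order of the sums. Its part in these results was not tested.

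**Figure D5:**
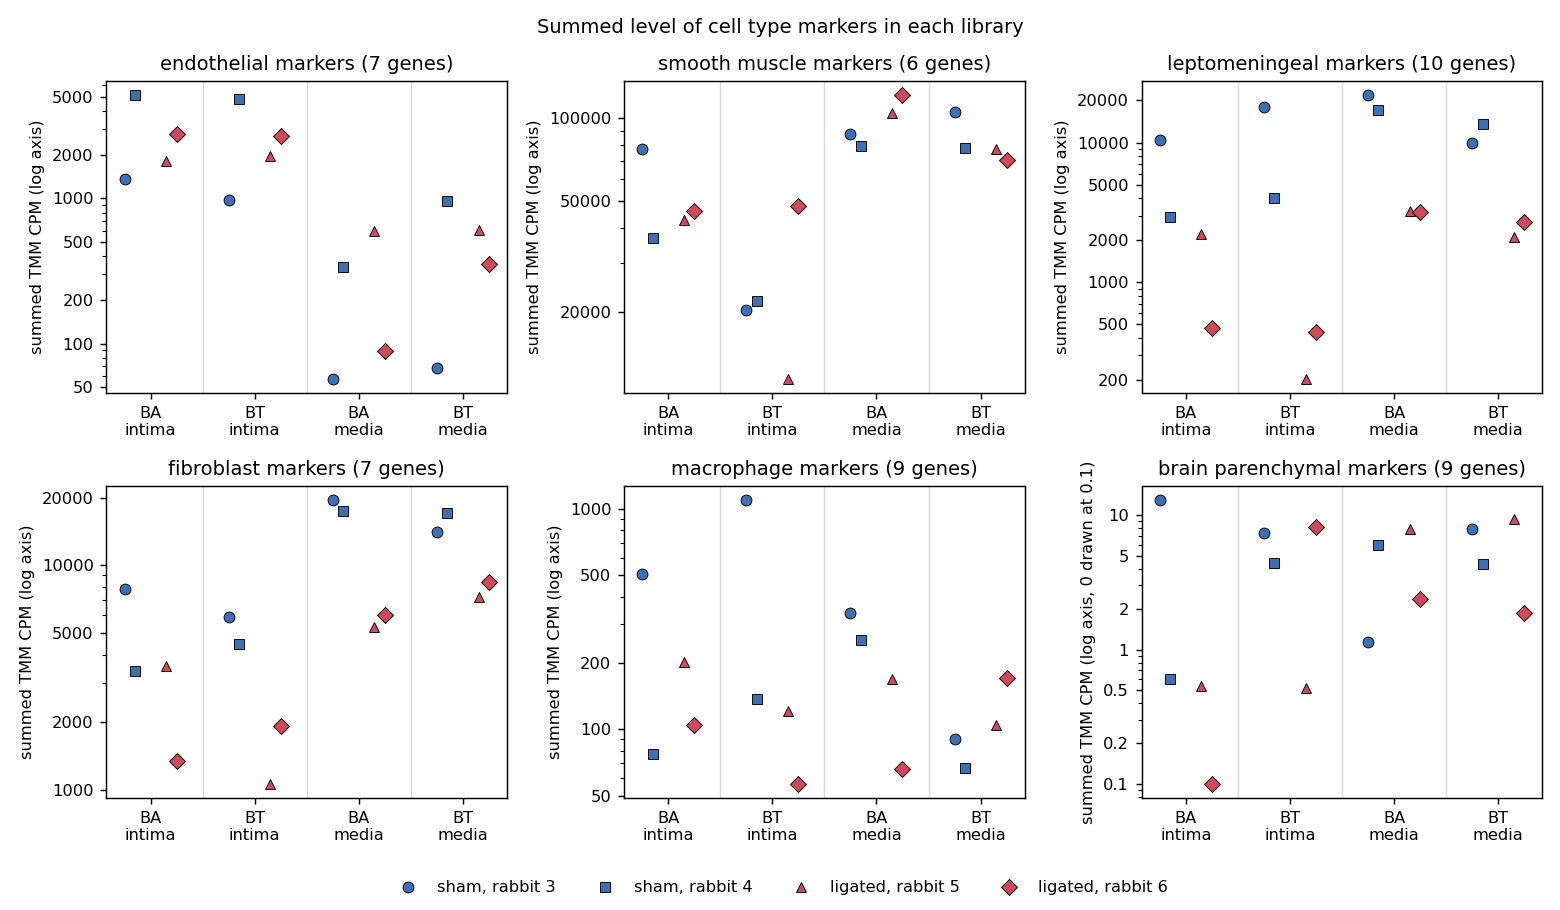
Summed TMM CPM (log axis) of marker genes of ECs, VSMCs, leptomeninges, fibroblasts, macrophages and brain parenchyma in each library, by tissue; blue symbols are sham and red symbols ligated rabbits. Leptomeningeal sums are lower in ligated than in sham libraries of each tissue, from 17817 and 3992 to 204 and 442 CPM in the BT intima.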

How the data were processed

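The authors deposited unnormalized read counts for each gene symbol, made from SMART-Seq v4 amplified, Nextera-prepared single reads. Reads were aligned to OryCun2.0 (STAR), only unique alignments were used, and exons were counted with featureCounts 1.6.2 on the Ensembl annotation (tools also named in the submitters' processing notes, with SAMtools 1.9). The counter was set to reverse-stranded reads (-s 2), while the amplification kit does not mark strand. Reads of 1 orientation were therefore left out, overlapping antisense genes could not be told apart, and the effect on levels was not tested. No column was left out. The single row without a symbol, 13.8% to 18.7% of counts, was left out of totals and tests, and 22 symbols replaced by dates were kept unmapped. All 4 genes matched the RefSeq symbol table, as did 12638 of 13788 symbols. No genome of the same build was used here, so no coordinates or sequences are given.

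Tests used edgeR 4.0.16 in R 4.3.3 (TMM within each comparison, quasi-likelihood F test in its older form, genes with a mean above 1 CPM in at least 1 group, Benjamini-Hochberg over all genes tested, threshold q = 0.05). The study filtered on RPKM, and CPM stands in for it as gene lengths were not used here. Ligated against sham was fitted per tissue, 2 against 2 rabbits, unpaired. Layers, locations and the ligation by location term were fitted with rabbit as a block, since the labels name the same rabbit for each pair. Deviations from group means of the same rabbit correlated at -0.035 to 0.39 between tissues. SEs are on the log2 scale. Counts differed between replicate rabbits by far more than counting noise (chi-square per degree of freedom 22.5 to 456), and p-values rest on 2 rabbits per flow group. Where all libraries of a group had 0 counts, folds are bounds taken at 3 counts per library.

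The 4 genes and all lists were chosen with earlier results of these data known, and no test was made on the 4 genes. The lists hold 1 gene whose values are not reported here. Genes named are the 4, all retinoid list genes with a call, a fixed set of other pathway and responsive genes, and the 3 most and 3 least alike genes by Pearson's r. The tests were also run on simulated counts, and the outcome is not given here. The simulated counts held no rabbit effect shared between tissues, so they could not check the use of rabbit as a block. Alternatives were RLE scaling, library size alone, all genes with a count, DESeq2 1.42.0, no replicate block, and leaving out each rabbit. Figures were drawn with matplotlib 3.10.9.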

Additional observations from a re-analysis of the deposited data

Results flagged for a closer look

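DGAT1, which can esterify retinol among other substrates, is listed because its libraries moved in opposite directions with ligation at the 2 locations of the media. It was at 26.0 and 50.5 CPM in the sham and 25.3 and 22.8 in the ligated BA media, and at 9.01 and 22.3 against 38.0 and 45.9 in the BT media. Both ligated libraries thus lay below both sham libraries at the BA and above them at the BT. The difference of the changes, BT minus BA, was 2.14 ± 0.83 on the log2 scale, and the edgeR interaction test with rabbit as a block gave q = 0.356, so a difference between locations was not established.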

How the results depend on the processing

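Under the settings that kept all rabbits (RLE scaling, library size alone, all genes with a count, DESeq2), the log2 differences of RDH10, ALDH1A2, CRABP2 and FABP5 between ligated and sham rabbits kept their signs and moved by less than the spread between replicates. Leaving out 1 rabbit moved them. The ranges are given for the intima of the BA and BT and then the media of the BA and BT. For RDH10 they were 2.42 to 3.46, 2.63 to 4.03, 0.50 to 2.01 and 3.36 to 4.20. For ALDH1A2 they were 1.29 to 10.72, -2.93 to 0.53, 2.22 to 2.82 and 0.25 to 2.44, for CRABP2 -0.35 to 3.16, -2.56 to 3.47, 0.64 to 2.92 and 2.56 to 4.99, and for FABP5 2.76 to 5.52, 1.87 to 2.83, 3.35 to 4.42 and 4.12 to 6.13. Signs turned for CRABP2 in the BA intima (-0.35 without rabbit 6) and, without rabbit 3, for ALDH1A2 (0.53) and CRABP2 (3.47) in the BT intima. The cause was not tested.

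Without the replicate block, FABP5 in the BT intima against media became -0.14. Leaving out 1 rabbit, the ligation by location difference of FABP5 ranged from -3.64 to 0.059 in the intima and from -0.12 to 2.51 in the media, and that of ALDH1A2 in the media from -2.57 to 0.19, with signs turned without rabbit 4, 3 and 4.

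Shares of all genes called under the other settings are not given here. The counts that follow describe the settings, and a general change in calls cannot be told from one of the retinoid genes. The number of other retinoid genes called depended on the filter and tool. With all genes with a count it was 4 in the BT and 1 in the BA intima, 3 in the media at either location and 2 for the layers at the BA. DESeq2 called 5 in the BT intima, 4 in the BT media, 3 for the layers at the BA and 1 at the BT. Scaling by library size alone gave 2 in the BT media and 0 for the layers at the BA. Without the replicate block the calls for the layers at the BA and for BT against BA in the media went to 0, and the call of NR2F2 was also lost. No retinoid list gene was called without it in the other 4 comparisons that had the block, as with it. Leaving out each rabbit gave 0 to 3 in the BT and 0 to 1 in the BA intima, 0 to 4 in the BT and 0 to 0 in the BA media, 0 to 1 for the layers at the BA, 0 to 1 for locations in the media and 0 to 1 for ligation by location in the intima. Scaling by library size alone moved the median log2 difference of all genes from -0.14 to -0.29 in the BA media, from 0.026 to 0.17 in the BT media, from 0.0012 to 0.24 and 0.068 to 0.31 for the layers at the BA and BT, and from 0.12 to 0.40 for ligation by location in the media. At these depths ALDH1A2 in the sham BA intima of rabbit 4 and CRABP2 in the sham BT media of rabbit 3 rest on 1 and 2 counts.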
